A study of Mus musculus with 28 samples.

Results

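The Ifng-high CD8 T cells described here are single tumour-infiltrating lymphocytes that carried at least 4 unique molecular identifiers (UMIs, each counting 1 captured mRNA molecule) of Ifng and at least 1 UMI of the CD3 genes Cd3d, Cd3e and Cd3g combined. There were 255 such cells among the 5364 CD3-positive cells that passed the quality filter, 78 in the library of isotype-treated mice and 177 in the library of mice given checkpoint blockade. The remaining 5109 CD3-positive cells (2838 and 2271) were the comparison. Because the cells were chosen by their Ifng UMIs, their Ifng level is a description of the rule, and since every gene was read from the same cells, none of the single-cell ratios below carries a test.

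The cells came from wild-type C57BL/6 mice bearing tumours of MC38-OVA, a colon carcinoma line that expresses the model antigen ovalbumin. CD8+ T cells lacking surface PD-1 and Tim-3 (DN, for double negative) were sorted 12 days after implantation from mice given isotype control antibodies or anti-PD-1 together with anti-Tim-3, and each condition gave 1 droplet (10x Chromium 3′) library. The bulk RNA libraries of the series, of about 2000 lysed cells each, came from mice of the same strain, genotype and tumour. A first bulk experiment held DN and PD-1+Tim-3+ (DP) cells from isotype-treated and blockade-treated mice (3 libraries in each of the 4 groups). The other held 3 fractions of PD-1-CD8+ cells: naive-like (Slamf7- and CX3CR1-, 6 libraries), memory-like (Slamf7hi and CX3CR1-, 5 libraries) and effector-like (Slamf7hi and CX3CR1+, 3 libraries, whose names list several numbers and may be pools). The labels tie the single-cell columns to a condition only through a library number, so the assignment of suffix 1 to isotype and suffix 2 to blockade rests on that number alone.

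Interferon gamma, the product of Ifng, is a main effector cytokine of CD8 T cells and is transcribed in short bursts after the T cell receptor meets its antigen. Receptor signalling through calcineurin and NFAT, NF-kappaB and MAP kinases also switches on immediate-early genes such as Nr4a1, an orphan nuclear receptor widely used as a reporter of recent receptor engagement, and the genes of the inflammatory chemokines Ccl3 and Ccl4. Itgb1 encodes the beta-1 integrin subunit (CD29), which pairs with several alpha chains to bind extracellular matrix and is carried by antigen-experienced T cells.

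The 250 bases upstream of the annotated start sites give the sequence context of these genes' promoters. Sequences are from RefSeq (GRCm38.p6), 5′ to 3′ along the gene's own strand, and capitals mark matches on either strand to GGAAA (the core of NFAT sites), TATAAA (the TATA box) and TGACG (the core of the cAMP response element). Ifng and Ccl3 are shown as cytokine genes of these cells, Nr4a1 as the immediate-early gene and Itgb1 as the integrin gene to be compared with them. The windows lie at chr10:118440796-118441045 (plus strand) for Ifng, chr11:83649379-83649628 (minus strand) for Ccl3, chr15:101266596-101266845 (plus strand) for Nr4a1 and chr8:128685404-128685653 (plus strand) for Itgb1.
Ifng: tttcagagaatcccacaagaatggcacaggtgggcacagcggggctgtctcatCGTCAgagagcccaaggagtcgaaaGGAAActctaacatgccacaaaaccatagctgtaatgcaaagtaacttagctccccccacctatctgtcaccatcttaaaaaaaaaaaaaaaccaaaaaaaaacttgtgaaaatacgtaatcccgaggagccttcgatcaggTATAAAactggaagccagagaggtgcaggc
Ccl3: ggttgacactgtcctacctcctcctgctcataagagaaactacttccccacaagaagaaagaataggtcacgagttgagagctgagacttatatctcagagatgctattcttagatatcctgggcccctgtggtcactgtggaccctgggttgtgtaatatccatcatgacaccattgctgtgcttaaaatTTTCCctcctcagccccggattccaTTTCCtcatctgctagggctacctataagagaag
Nr4a1: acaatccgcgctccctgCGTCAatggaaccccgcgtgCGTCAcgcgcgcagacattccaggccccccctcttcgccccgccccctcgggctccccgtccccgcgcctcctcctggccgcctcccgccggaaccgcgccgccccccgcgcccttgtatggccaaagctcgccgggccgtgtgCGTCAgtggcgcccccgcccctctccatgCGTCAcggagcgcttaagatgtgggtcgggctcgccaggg
Itgb1: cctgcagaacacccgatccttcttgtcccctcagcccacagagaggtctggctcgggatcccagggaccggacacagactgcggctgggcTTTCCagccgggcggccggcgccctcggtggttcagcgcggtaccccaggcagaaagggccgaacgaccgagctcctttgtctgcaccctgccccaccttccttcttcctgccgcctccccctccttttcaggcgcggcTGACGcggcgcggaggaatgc
The Ifng window held a TATA box starting 30 bases upstream of the start site, an NFAT core at 172 bases and a cAMP response element core on the opposite strand at 197 bases. The Ccl3 window held 2 NFAT cores on the opposite strand, 59 and 34 bases upstream. The Nr4a1 window held no NFAT core and 4 cAMP response element cores, all on the opposite strand, 233, 213, 69 and 40 bases upstream. The Itgb1 window held 1 NFAT core on the opposite strand at 160 bases and 1 cAMP response element core at 21 bases. Among all 32851 RefSeq windows of this length, 55.6% held the NFAT core, 12.4% the TATA box, 17.8% at least 1 cAMP response element core and 0.137% at least 4 of them. The AP-1 letters TGANTCA, found in 6.75% of all windows, were in none of the 4 shown. Of the 12 genes that stood higher in the Ifng-high cells (below), 10 had a window in the table, and Ccl4 and Bhlhe40 had none.

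Ifng was spread over more cells of the blockade library, and its highest class was larger there. Ifng-high cells made up 2.67% of CD3-positive cells in the isotype library (78 of 2916, 95% Clopper-Pearson interval 2.12 to 3.33%) and 7.23% in the blockade library (177 of 2448, interval 6.24 to 8.33%). The intervals cover counting error only, and with 1 library per condition the difference has no replicate check. At least 1 Ifng UMI was found in 16.7% of isotype cells (486) and 38.3% of blockade cells (937), so the lower classes were larger in the blockade library as well: 8.68% against 18.7% of cells had exactly 1 UMI, and 5.32% against 12.4% had 2 to 3. Just outside the threshold, 57 and 91 cells had exactly 3 UMIs, and just inside it 34 and 50 had exactly 4. The Ifng-high cells held 51.8% of all Ifng UMIs of the CD3-positive isotype cells and 57.3% of those of the blockade cells.

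**Figure D1:**
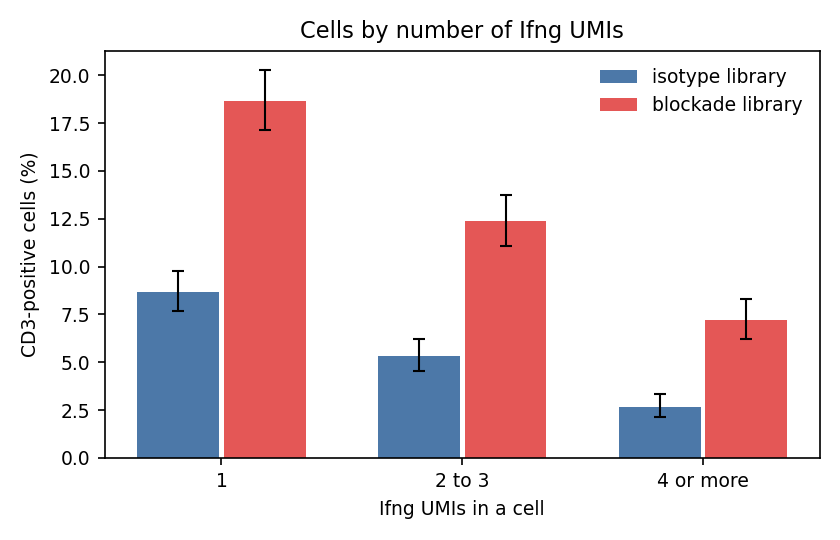
Share of CD3-positive cells (%, vertical axis) with 1, 2 to 3, or 4 or more Ifng UMIs (horizontal axis) in the isotype and blockade libraries; bars are the shares and error bars the exact 95% binomial intervals. Every class is larger in the blockade library, from 8.68% against 18.7% at 1 UMI to 2.67% against 7.23% at 4 or more.

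Within the class, Ifng was unevenly held. The median Ifng-high cell carried 5 Ifng UMIs in the isotype and 6 in the blockade library, whereas the highest carried 147 and 146. Only 6 isotype and 35 blockade cells had 10 or more UMIs, and 4 and 7 had 20 or more. Sequencing depth differed little between the class and the other cells: the median was 3591 UMIs per Ifng-high cell against 3653.5 per other cell in the isotype library, and 4080 against 3807 in the blockade library. The shallowest CD3-positive cell held 1604 UMIs in the isotype and 2578 in the blockade library. When every cell was thinned to 2000 UMIs, which left out 240 isotype cells (5 of them Ifng-high) and no blockade cell, 1.05% and 2.61% of cells still reached 4 Ifng UMIs. Among CD3-negative cells, which should hold few T cells, an Ifng UMI was found in 1 of 34 isotype cells (2.94%, median depth 3873.5 UMIs) and 4 of 54 blockade cells (7.41%, median depth 5775.5 UMIs), below the shares in CD3-positive cells.

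The label CD8 T cell fitted the markers of nearly all Ifng-high cells. A UMI of Cd8a or Cd8b1 was found in 243 of the 255 cells, and Cd4 in 1. All 9 measured T cell identity genes stood slightly higher than in other cells in both libraries; Cd8b1, for example, was at 1129 against 966 counts per 1000000 UMIs (CPM) in the isotype library and 1288 against 912 in the blockade library. Pdcd1, which encodes the PD-1 protein that the sort excluded, had a UMI in 6.41% of Ifng-high cells against 3.31% of other cells (isotype) and in 26% against 16.2% (blockade). Havcr2, which encodes Tim-3, was found in 3.85% against 0.388% and in 7.91% against 3.79%. No barcode of an Ifng-high cell occurred in both libraries (7 barcodes of other cells did).

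Summed tumour, stroma and myeloid transcripts were scarcer in the Ifng-high cells than in their neighbours. The share of cells rich in myeloid UMIs differed little. None of the 255 cells held 3 or more UMIs of the tumour and stroma list, against 18 (0.634%) and 19 (0.837%) of the other cells; the list summed to 9.79 against 196 CPM in the isotype and 6.85 against 334 CPM in the blockade library, and 5 of its 10 genes, among them Krt18, Col1a1 and Sparc, were at 0 in every Ifng-high cell. Cells rich in tumour or stroma UMIs were too rare among the others for their absence from 255 cells to separate the classes. Myeloid markers summed to 166 against 337 CPM and 227 against 1117 CPM, with 8 of 20 genes at 0, including Csf1r. Yet 3 or more myeloid UMIs were held by 7.69% against 9.27% of isotype and 11.9% against 13.3% of blockade cells. B cell markers summed to 9.79 against 19.4 and 12.6 against 11.5 CPM, with Cd79a and Ms4a1 among those at 0. Other lists summed higher in the class. CD4 and regulatory T cell markers summed to 84.8 against 58.2 and 194 against 115 CPM, with Foxp3 at 0. Most of each sum was Ctla4 (62.0 against 42.2 and 142 against 82.2 CPM), the only gene of that list with enough UMIs. Plasmacytoid dendritic cell markers summed to 440 against 263 CPM in the isotype but 506 against 524 CPM in the blockade library, where 35.0% of Ifng-high and 30.3% of other cells held 3 or more of their UMIs; Siglech was at 0. Natural killer markers summed to 1187 against 181 and 1282 against 865 CPM, but most of that sum was Gzma, which CD8 T cells share, and in the isotype library 83.3% of the Tyrobp and 57.9% of the Fcer1g UMIs came from 1 cell. The part of these transcripts in the ratios below was not tested beyond the recounts given beside them.

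Among 4754 genes with at least 5 expected UMIs in the Ifng-high cells of each library, 12 (0.252%) stood at least 2-fold higher than in other CD3-positive cells in both libraries, and 53 (1.11%) at least 2-fold lower. The 12 were Ifng itself, the chemokine genes Ccl3 and Ccl4, the receptor-induced regulators Nr4a1, Nfkbid and Bhlhe40, the costimulatory receptor gene Tnfrsf9 (4-1BB), the stress-response gene Gadd45b, the survival genes Bcl2a1b and Bcl2a1d, the protease inhibitor gene Serpinb6b and the heat-shock gene Hspa1a. Bcl2a1b and Bcl2a1d, and Hspa1a and Hspa1b, are near-identical copies whose reads the counting could have split, so their separate values are uncertain. These ratios share the cells with the rule, and nothing beyond a description was read from the 2 shares. Several of the 12 lay close to the limit in the blockade library. Without the 18 isotype and 19 blockade cells that held 3 or more tumour or stroma UMIs, 7 genes stood higher, of which Ifng, Ccl3, Ccl4, Tnfrsf9 and Hspa1a were among the 12, and 14 stood lower. Without cells of 3 or more myeloid, B or plasmacytoid dendritic cell UMIs, 9 genes stood higher, 5 of them among the 12. Bhlhe40, Gadd45b, Bcl2a1d, Bcl2a1b, Serpinb6b, Nr4a1 and Hspa1a no longer counted. In that recount 14 genes stood lower, only 2 of them among the 53.

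**Figure D2:**
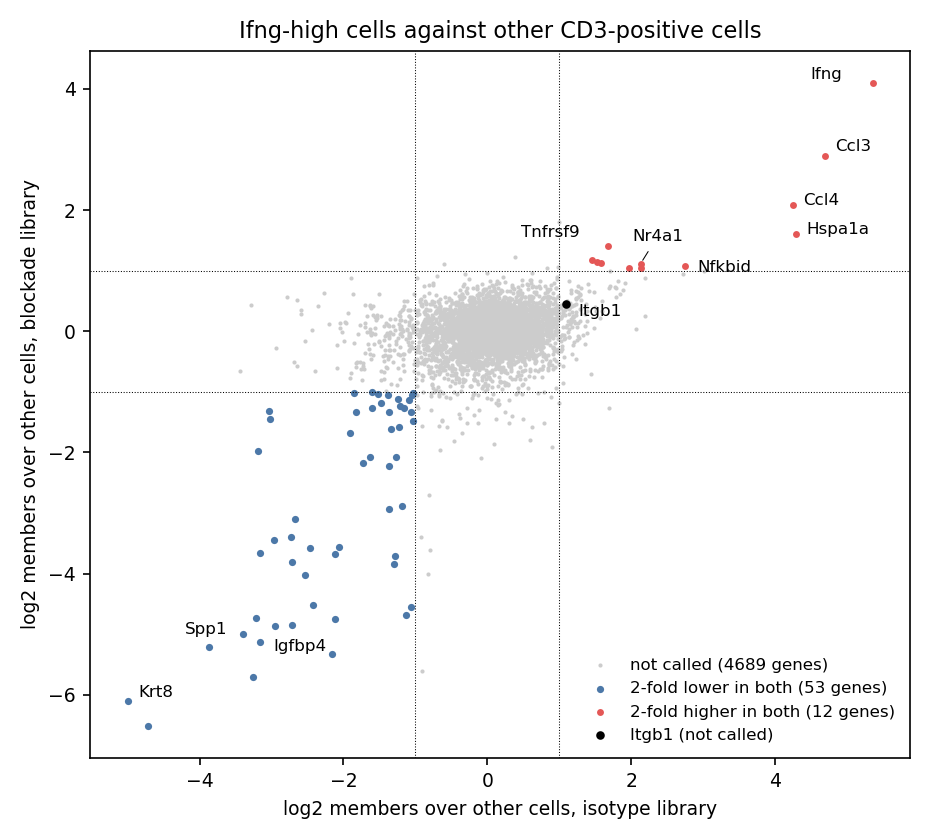
Log2 ratio of summed CPM in Ifng-high over other CD3-positive cells in the isotype (horizontal) and blockade library (vertical), 1 point per gene for 4754 genes; dotted lines mark 2-fold, red marks the 12 genes higher and blue the 53 lower in both libraries, black Itgb1, and genes at 0 UMIs in the Ifng-high cells are placed at the floor of 3 counts. Ifng, Ccl3, Ccl4 and Hspa1a lie farthest to the upper right, while Itgb1 sits past 2-fold in the isotype library only (1.10 against 0.46).

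Ranked by the smaller of their 2 library ratios, Ccl3 and Ccl4 came next after Ifng; in the isotype library alone Hspa1a (4.29) lay above Ccl4. Ccl4, an inflammatory chemokine gene, stood at 3585 CPM in Ifng-high and 189.6 CPM in other cells of the isotype library, and at 2154 and 506 CPM in the blockade library, log2 ratios of 4.24 (interval 4.14 to 4.35) and 2.09 (2.01 to 2.17). It was detected in 62.8% of Ifng-high against 23.9% of other isotype cells, and in 72.3% against 46.5% of blockade cells. At 10 or more Ccl4 UMIs, the contrast was 15.4% (12 cells) against 1.52% (43) in the isotype and 20.9% (37) against 5.33% (121) in the blockade library. Ccl3 stood at 1073 against 41.6 CPM and 612 against 82.0 CPM, log2 ratios of 4.69 and 2.90, and was seen in fewer cells (26.9% against 6.34% and 24.9% against 12.5%). A single cell held 43.9% of the Ccl4 and 54.4% of the Ccl3 UMIs of the isotype class, and 21.5% and 23.1% in the blockade class. Without the 11 cells of 20 or more Ifng UMIs, the log2 ratios were 2.26 and 1.3 for Ccl4 and 2.58 and 1.32 for Ccl3, so both remained past 2-fold in each library. Of the 8 listed chemokine genes 5 were measured, 2 stood higher and none lower. Ccl5, the most abundant of them, was at 13773 against 5322 CPM in the isotype library (log2 ratio 1.37) but 12715 against 9269 CPM in the blockade library (0.46), where 94.5% of the other cells also expressed it. Xcl1, which draws XCR1+ dendritic cells, had ratios of 0.83 and 1.04, and 41.5% and 59.2% of its UMIs in the class came from 1 cell.

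Other cytokine genes were low. Of 20 listed cytokine genes 7 had enough UMIs, of which Ifng stood higher and Tnfsf8 (CD30 ligand, 13.0 against 33.0 and 5.71 against 17.5 CPM) lower. Tnf and Il2 fell under the limit of expected UMIs. Tnf was at 71.8 against 11.1 CPM (isotype) and 43.4 against 20.4 CPM (blockade), and Il2 at 45.7 against 5.14 CPM and 28.6 against 7.34 CPM. A UMI of Tnf or Il2 was present in 19.2% of Ifng-high against 5.81% of other isotype cells, and in 21.5% against 11.2% of blockade cells. Il3 and Il21 had no UMI in any of the 255 cells.

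Nr4a1 was higher in the Ifng-high class of each library, at a far lower level than Ccl3, Ccl4 and Ccl5. It stood at 192 CPM in Ifng-high against 44.0 CPM in other isotype cells (log2 ratio 2.13, interval 1.71 to 2.52) and at 111 against 51.2 CPM in blockade cells (1.11, 0.79 to 1.43). A Nr4a1 UMI was found in 33.3% against 14% and in 29.4% against 18.4% of cells. At 2000 UMIs per cell the shares were 17.8% against 7.45% and 17.5% against 10.7%. The blockade ratio lies near the 2-fold limit: it was 0.96 without the cells of 20 or more Ifng UMIs, 0.94 without cells with 3 or more tumour or stroma UMIs, 0.83 without cells with 3 or more myeloid, B or plasmacytoid dendritic cell UMIs and 0.89 with a threshold of 3 Ifng UMIs, while the isotype ratio ranged from 1.54 to 2.49 over all settings that gave one.

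The wider list of receptor-induced early genes leaned the same way with smaller ratios. Of its 36 genes 30 were measured, 3 stood at least 2-fold higher in both libraries and none lower. Of the 30, 24 lay above 0 in both libraries and 2 below. Of all 4754 genes 1649 lay above 0 in both and 1130 below, which is the background for every list here. The medians were 0.67 and 0.31, where all 4754 genes had 0.06 and 0.04. Bhlhe40, a transcription factor that supports cytokine production, was at 254 against 58.1 CPM and 419 against 202 CPM (2.13 and 1.05), in 43.6% against 14.6% and 65.0% against 44.9% of cells. Its blockade ratio fell under 2-fold after thinning (0.88), with CD8-positive cells only (0.98), with per-cell means (0.90), and without cells rich in myeloid, B or plasmacytoid dendritic cell UMIs (0.96), in tumour or stroma UMIs (0.89) or over 3 times the median depth (0.90). Nfkbid, which encodes an atypical I-kappaB protein, was at 196 against 29.3 CPM in the isotype but only 58.2 against 27.5 CPM in the blockade library (2.74 and 1.08). Nfkbia, the NF-kappaB inhibitor, reached 1.17 and 0.68. Irf8 reached 2.71 and 0.95, but 76.2% of its isotype UMIs came from 1 cell. Egr3 had no UMI in any of the 255 cells. Of 14 feedback regulators of receptor signalling 9 were measured and all 9 lay above 0 in both libraries without reaching 2-fold, with Rgs1, a regulator of G protein signalling, at 0.58 and 0.56.

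Surface and survival genes of activated T cells were higher in part. Of 11 measured activation receptors Tnfrsf9 alone passed 2-fold in both libraries, at 127 against 39.7 CPM and 250.1 against 94.0 CPM (1.68 and 1.41). The cells of 20 or more Ifng UMIs carried much of it in the isotype library, where its ratio without them was 0.72 (1.05 in the blockade library). Icos, a costimulatory receptor, fell just short (0.97 and 0.89), and Cd69, an early activation marker, lay lower (0.71 and 0.59). Bcl2a1b stood at 316 against 106 and 418 against 191 CPM (1.57 and 1.13), Bcl2a1d at 104 against 26.5 and 129 against 62.7 CPM (1.98 and 1.04), and Gadd45b at 183 against 66.9 and 224 against 99.4 CPM (1.45 and 1.17). Neither Bcl2a1b nor Bcl2a1d still counted as higher after thinning, or without cells over 3 times the median depth or of 50 or more Ifng UMIs. The same held without cells rich in tumour or stroma UMIs and without those rich in myeloid, B or plasmacytoid dendritic cell UMIs. In these last recounts Gadd45b was lost too. Bcl2a1d was also lost with CD8-positive cells only and with per-cell means. Of 11 co-inhibitory receptor genes only 3 were measured. Lag3 was at 35.9 against 18 CPM in the isotype library, on 11 UMIs, and at 233 against 66.9 CPM in the blockade library (1.80, interval 1.57 to 2.02), in 25.4% against 17.8% of cells.

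Cytotoxic genes stood higher in the isotype class and less so in the blockade class. Of 15 genes 12 were measured, 11 of them above 0 in both libraries with medians of 1.21 and 0.54, but only Serpinb6b (268 against 93.1 and 395 against 179.5 CPM, 1.52 and 1.14) passed 2-fold in both. A single blockade cell held 16.8% of its UMIs. The blockade ratio of Serpinb6b was 0.77 without cells of 20 or more Ifng UMIs, 0.68 after thinning, 0.60 without cells rich in myeloid, B or plasmacytoid dendritic cell UMIs, 0.95 without those rich in tumour or stroma UMIs, 0.69 without cells over 3 times the median depth and 0.69 with per-cell means. Gzmb, which encodes granzyme B, was at 871 against 268 CPM (1.70) in the isotype library and at 2560.4 against 1290.0 CPM (0.99) in the blockade library, in 53.8% against 18.3% and 78% against 64.8% of cells. Gzma was at 851 against 105 CPM (3.01), of which 1 cell held 65.1%, and at 1071 against 536 CPM (1.0). The effector receptor genes Klrc1 (1.81 and 0.83) and Klrk1 (1.71 and 0.75) and the regulator Id2 (1.23 and 0.67) showed the same order, while Slamf7, one of the sort markers of the bulk fractions, reached 1.77 and 0.73. In each of these genes the level of the other cells was higher in the blockade library.

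Itgb1 was moderately higher and, unlike Ccl3, Ccl4 and Xcl1, evenly spread over the class. It stood at 144 against 67.1 CPM in the isotype library (log2 ratio 1.10, interval 0.63 to 1.54) and at 134 against 97.4 CPM in the blockade library (0.46, 0.17 to 0.73), so it passed 2-fold in the isotype library only. A UMI was found in 42.3% against 18.2% of isotype and 41.8% against 27.6% of blockade cells, and after thinning in 27.4% against 10.3% and 26% against 16.3%. No cell held more than 6.82% (isotype) or 3.42% (blockade) of the class's Itgb1 UMIs, and without the cells of 20 or more Ifng UMIs the ratios were 1.18 and 0.51. None of the 6 measured integrin genes of 11 passed 2-fold in both libraries. The LFA-1 subunits Itgb2 (0.52 and 0.57) and Itgal (0.34 and 0.39) lay above 0, Itgb7 was near 0 (0.06 and 0.08) and Itga6, the laminin receptor chain, lay below (-0.93 and -3.39, on 3 and 2 UMIs).

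**Figure D3:**
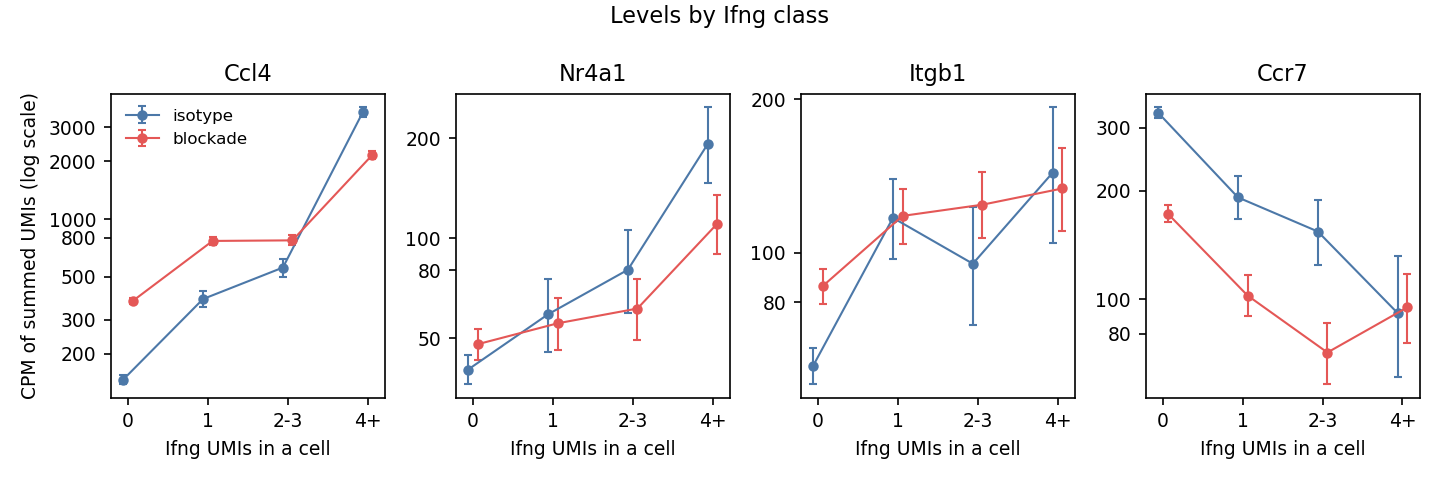
Summed CPM (log axis) of Ccl4, Nr4a1, Itgb1 and Ccr7 in CD3-positive cells grouped by Ifng UMIs per cell (0, 1, 2 to 3, 4 or more) in the isotype and blockade libraries; error bars are exact 95% Poisson intervals. Ccl4 jumps at 4 or more UMIs (559 to 3585 CPM in the isotype library, or to 910 CPM without cells of 20 or more Ifng UMIs). Itgb1 is already higher at 1 UMI (60.0 to 117 CPM) and Ccr7 is highest at 0.

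The classes of cells with fewer Ifng UMIs show at which step each gene's level differed. From 0 through 1 and 2 to 3 to at least 4 Ifng UMIs, Ccl4 stood at 146, 384, 559 and 3585 CPM in the isotype library and at 375.0, 769, 774.5 and 2154 CPM in the blockade library. Nr4a1 stood at 40.2, 59.0, 80.4 and 192 CPM and at 47.9, 55.4, 61.4 and 111 CPM, so the last step was the largest for both genes in each library. Without cells of 20 or more Ifng UMIs, the last class stood at 910 and 1247 CPM for Ccl4 and 128 and 99.4 CPM for Nr4a1. As a ratio, the last step of Ccl4 was then smaller than its first in each library. Itgb1 stood at 60.0, 117, 95.1 and 144 CPM and at 86.0, 118, 124 and 134 CPM, with most of its difference already present at 1 UMI. Gzmb showed the early step in the isotype library (196, 689, 715 and 871 CPM) and a steadier order in the blockade library (1053, 1645, 1967 and 2560.4 CPM). Bhlhe40 ranged from 42.9 to 254 CPM through 135 and 172 in the isotype library and from 154 to 419 CPM through 260.0 and 359 in the blockade library. Tnfrsf9 was at 36.4, 59.0, 60.7 and 127 CPM and at 76.0, 122, 143 and 250.1 CPM. Levels are relative to each class's own UMI sum, to which deep cells add most, and 6 Ifng-high cells held over 3 times their library's median UMIs.

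Genes of naive and circulating T cells stood lower. Of 16 listed genes 14 were measured, none stood higher, 13 lay below 0 in both libraries (medians -0.77 and -0.53) and 3 were at least 2-fold lower in both: Igfbp4, Actn1 and Ccr9. Actn1, which encodes an actin cross-linker, was at 26.1 against 79.6 and 22.8 against 55.0 CPM. Ccr7, the lymph node homing receptor, was at 91.3 against 309 CPM (-1.76) in 19.2% against 50.5% of isotype cells, and at 94.8 against 146 CPM (-0.62) in 20.3% against 27.3% of blockade cells. Across Ifng classes Ccr7 stood at 330.5, 192, 154 and 91.3 CPM in the isotype and at 173, 102, 71.0 and 94.8 CPM in the blockade library. Igfbp4 was at 19.6 against 174 CPM and 7.99 against 281 CPM, but in the blockade library its share of positive cells barely differed (3.39% against 3.57%), and without cells of over 3 times the median UMIs the blockade ratio was 0.03. Of 9 measured memory-precursor genes none was 2-fold higher or lower in both libraries, 4 lay below 0 in both and 1 above, with medians of -0.06 and -0.19. Ikzf2, an Ikaros family factor, had ratios of -0.97 and -1.27 and Id3, an inhibitor of E proteins, -0.51 and -0.73. Tcf7, a factor of stem-like T cells, was detected in 46.2% against 58.0% of isotype and 36.2% against 48.7% of blockade cells (ratios -0.23 and -0.50).

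Ifngr2, the signalling chain of the receptor for interferon gamma, was nearly undetected in the cells that held the most Ifng. It had 1 UMI in the 78 isotype cells (3.26 against 21.4 CPM in other cells, log2 ratio -2.71, interval -8.02 to -0.22) and 1 in the 177 blockade cells (1.14 against 16 CPM, -3.81, interval -9.12 to -1.31). The share of cells with an Ifngr2 UMI was 7.86% at 0 Ifng UMIs, 2.37% at 1, 0.645% at 2 to 3 and 1.28% at 4 or more in the isotype library. In the blockade library it was 3.18%, 1.53%, 2.31% and 0.565%. With 1 UMI per library the intervals are wide. The list of interferon gamma receptor and response genes otherwise differed little: of 21 genes 15 were measured, Ifngr2 alone was at least 2-fold lower, none higher, and the medians were 0.32 and 0.02. Tap1, a peptide transporter, had ratios of 0.40 and 0.28.

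The lower genes with the largest ratios included transcripts that T cells do not normally make. The leading 10 were the keratins Krt8 (3.26 against 104 and 2.28 against 157 CPM) and Krt19, Cd63, Lgals7, Spp1, Cald1, Nupr1, Ctsl, Igfbp4 and the class II gene H2-Ab1. In the isotype library Krt8 had a UMI in 1.28% of Ifng-high and 2.36% of other cells, and in the blockade library in 1.13% and 1.76%, so its UMIs lay in a small share of the other cells. Without cells of over 3 times the median UMIs, 15 genes stood lower, 11 of them among the 53.

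Of 21 measured Myc and ribosome biogenesis genes, and of 14 secretory pathway genes, none reached 2-fold in both libraries, and medians lay between -0.03 and 0.07. Glycolysis genes had medians of 0.35 and 0.21 and cell cycle genes 0.37 and 0.52, again with none of 13 and 12 past 2-fold in both; 9 of the 12 cell cycle genes lay above 0 in both. Mki67, a proliferation marker, was detected in 1.28% against 1.34% of isotype and 7.34% against 3.17% of blockade cells. All 7 measured residency genes lay above 0 in both libraries, with medians of 0.83 and 0.56, led by Cxcr6 (1.27 and 0.56) and Ccr2 (1.78 and 0.57), and none passed 2-fold in both. Among 8 measured heat-shock genes, which dissociation can induce, only Hspa1a passed (695 against 35.5 and 202 against 66.3 CPM, in 14.1% against 4.12% and 5.08% against 4.36% of cells). In the blockade class 1 cell held 46.3% of the Hspa1a UMIs, and the ratio there was 0.16 without cells with 3 or more myeloid, B or plasmacytoid dendritic cell UMIs.

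**Figure D4:**
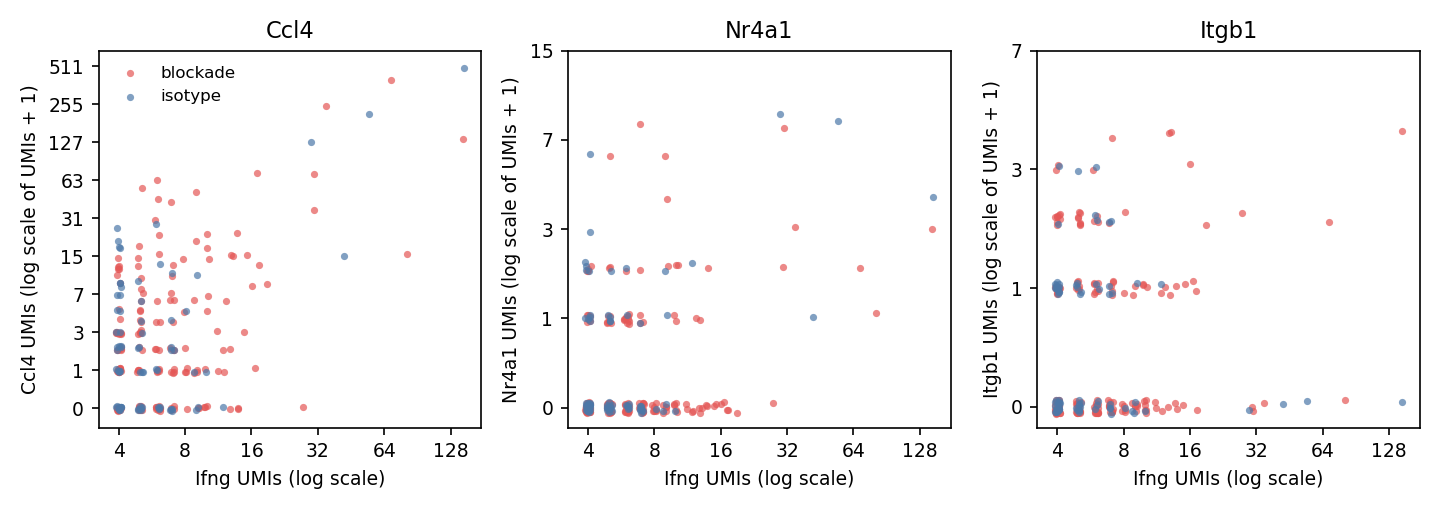
Ccl4, Nr4a1 and Itgb1 UMIs (vertical, log scale with jitter) against Ifng UMIs (horizontal, log scale) in each of the 78 isotype and 177 blockade Ifng-high cells. The isotype cell with 147 Ifng UMIs holds 483 Ccl4 UMIs and the blockade cell with 70 holds 406, while 57 of the 255 cells hold neither Ccl4 nor Nr4a1; Itgb1 shows no such high cells.

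Cell by cell, the class was mixed. In the isotype library 23.1% of Ifng-high cells held both Ccl4 and Nr4a1 UMIs (4.72% of other cells), 39.7% held Ccl4 without Nr4a1 (19.2%), 10.3% held Nr4a1 without Ccl4 (9.30%) and 26.9% held neither (66.8%). In the blockade library the shares were 22% with both (8.89%), 50.3% with Ccl4 only (37.6%), 7.34% with Nr4a1 only (9.56%) and 20.3% with neither (44.0%). Altogether 57 of the 255 cells showed neither partner gene at this depth. Ccl3 without Ccl4 occurred in only 3 cells of each class. The isotype cell with 147 Ifng UMIs held 483 Ccl4 and 179 Ccl3 UMIs at a depth of 5433 UMIs, and the next, with 53 Ifng UMIs, held 206 Ccl4 UMIs. Of the 4 highest isotype cells, the cell with 43 Ifng UMIs had only 15 Ccl4 UMIs but 31 of Hspa1a. The blockade cell with 146 Ifng UMIs held 134 Ccl4, 118 Ccl3 and 109 Xcl1 UMIs at a depth of 24288 UMIs, and cells with 70 and 34 Ifng UMIs held 406 and 244 Ccl4 UMIs.

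The 4 highest Ifng cells of each library held 76.0% (isotype) and 42.4% (blockade) of the class's Ccl4 UMIs and 37.3% and 9.28% of its Nr4a1 UMIs, but 0% and 5.13% of its Itgb1 UMIs. Within the class, Spearman's rho between Ifng CPM and the other gene's CPM was 0.16 and 0.24 for Ccl4, 0.24 and 0.08 for Nr4a1 and -0.06 and 0.00 for Itgb1 over 78 and 177 cells, which share a library and the total that scales both genes. These weak values in sparse counts describe the cells and carry no test. Effector and memory-type transcripts overlapped in some cells. Tcf7 and Gzmb were both detected in 19.2% of isotype Ifng-high cells (7.75% of other cells) and in 24.9% of blockade Ifng-high cells (27.7%). Cx3cr1 or Klrg1, which mark terminal effectors, had a UMI in 17.9% against 2.75% of isotype and 8.47% against 5.68% of blockade cells.

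Between the libraries, the Ifng-high cells themselves differed in genes such as Lag3 and Gzmb, higher in the blockade library, and Dapl1, lower there. Of 4923 genes, 377 (7.66%) stood at least 2-fold higher and 99 (2.01%) at least 2-fold lower in blockade than in isotype Ifng-high cells, and for 151 and 58 of them the counting interval left out 1. The median over all genes was 0.13, against 0.18 in the other cells. Leading higher genes were Tnfrsf4 (OX40, log2 ratio 3.70), the metallothioneins Mt2 (4.83) and Mt1 (3.21), Taf1b (3.29), Slfn8 (3.24) and the mitotic gene Ube2c (3.19). In the isotype class Tnfrsf4, Taf1b and Slfn8 each rested on 1 UMI, Mt2 and Ube2c on 2 and Mt1 on 10, and a single blockade cell held 52.5% of the Mt2 and 47.0% of the Mt1 UMIs. Leading lower genes were the heat-shock genes Hspa1b (-2.41) and Hspa1a (-1.78), Dapl1 (-1.95), Aldh18a1 (-1.89), Slc28a2 (-1.86) and Klra1 (-1.80). In the other CD3-positive cells the same ratios were 1.06 for Tnfrsf4, 2.05 for Mt2, 1.38 for Mt1, -0.06 for Taf1b, 0.64 for Slfn8 and 1.96 for Ube2c. For the lower genes they were 0.52 for Hspa1b, 0.90 for Hspa1a, -2.60 for Dapl1, 0.07 for Aldh18a1, 0.28 for Slc28a2 and 1.01 for Klra1, so Dapl1 alone of these 6 was also lower in the other cells. Among list genes, Lag3 had 2.70 in the class and 1.90 in other cells, Gzmb 1.56 and 2.27, and Icos 1.13 and 1.21.

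Of the 12 genes higher in Ifng-high cells, 5 had opposite signs between the libraries in the class and in the other cells. The share of all compared genes with opposite signs is not given here, so the count does not set the 12 apart. Summed over the class, whose threshold sets part of the level, Ifng was at 2169 CPM in the isotype and 1770.1 CPM in the blockade library (log2 ratio -0.29, interval -0.43 to -0.16), while the median per cell was 5 and 6 UMIs. In other cells, all under 4 UMIs, it was at 53.1 and 103 CPM (0.96). Ccl4 had ratios of -0.74 in the class and 1.42 in other cells, Ccl3 -0.81 and 0.98, Nr4a1 -0.80 and 0.22 and Hspa1a -1.78 and 0.90. Nfkbid lay below 0 in both (-1.75 and -0.09). The other 6 lay above 0 in both, from 0.29 in the class and 0.57 in other cells for Gadd45b to 0.98 and 1.24 for Tnfrsf9, with Bhlhe40 at 0.72 and 1.80. Itgb1 was level in the class (-0.10, interval -0.61 to 0.43) and at 0.54 in other cells. Without the 11 cells of 20 or more Ifng UMIs the class ratio turned positive for Ifng (0.09) and Ccl4 (0.45), and stayed negative for Ccl3 (-0.28), Nr4a1 (-0.36) and Hspa1a (-1.48). With 1 library per condition, none of these differences was tested.

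The bulk libraries of the same sorted population are other samples than the single-cell libraries, and in them fewer cells of a type and less RNA per cell cannot be told apart. In DN cells, 66 of 12710 genes (0.519%) were higher and 76 (0.598%) lower in blockade than isotype libraries (edgeR quasi-likelihood test, Benjamini-Hochberg adjusted p under 0.05 over all genes). Of the 12 genes higher in Ifng-high single cells, Ifng and Bhlhe40 rose and none fell; 11 of the 12 had a positive log2 ratio, with a median of 0.61 against -0.01 over all genes. The 12 were chosen from cells of the same comparison, so their shared direction is not independent support.

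Ifng stood at 16.4, 20.1 and 19.4 CPM in the 3 DN isotype libraries and at 28.7, 47.8 and 52.2 CPM in the 3 DN blockade libraries, without overlap. It rose by 1.20 ± 0.22 (log2, SE; edgeR adjusted p = 0.0286). The adjusted p was 0.0422 without DN isotype 3 and 0.00651 without DN blockade 1, but 0.111, 0.0638, 0.0526 and 0.109 without DN isotype 1, DN isotype 2, DN blockade 2 or DN blockade 3. It was 0.0564 with the replicate number as a block and 0.149 when those 6 libraries were fitted alone. Bhlhe40 stood at 495, 386.5 and 325 CPM in isotype and 606, 665 and 986 CPM in blockade libraries, again without overlap, and rose by 0.90 ± 0.18 (edgeR adjusted p = 0.0415). The p was 0.0721 with the block, 0.194 with the 6 libraries alone, 0.0383 and 0.0479 without DN blockade 1 or 2, and 0.0551, 0.103, 0.0657 and 0.133 without DN isotype 1, 2 or 3 or DN blockade 3.

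Nr4a1 and Itgb1 did not pass although their libraries did not overlap. Nr4a1 stood at 366.2, 467.2 and 316.8 CPM in DN isotype against 543.5, 656.6 and 549.0 CPM in DN blockade libraries (0.61 ± 0.16, edgeR adjusted p = 0.0818; 0.00716 with DESeq2). Itgb1 stood at 191.1, 197.4 and 145.5 against 236.4, 320.2 and 372.2 CPM (0.80 ± 0.18, edgeR adjusted p = 0.0539; 0.000898 with DESeq2, 0.0212 without the filter on low counts and 0.0341 without DN blockade 1). The tumour keratin Krt8 was at 190 ± 151 CPM in DN isotype and 330 ± 125 CPM in DN blockade libraries (SD, n = 3 each), with overlap, and its part in these values was not tested. Ccl4 overlapped, at 207.8, 207.2 and 137.1 against 185.5, 276.8 and 247.5 CPM (0.36 ± 0.18, edgeR adjusted p = 0.355), and Ccl3, Tnfrsf9 and Nfkbid did not pass either (0.61, 0.66 and 0.72, edgeR adjusted p = 0.290, 0.215 and 0.162).

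Of the 53 genes lower in Ifng-high cells, 49 were measured in the DN libraries and 1, Ifngr2, fell, named here after its value was seen. Over all genes 0.598% fell. The 49 leaned the other way as a set: 33 had a positive log2 ratio, with a median of 0.34 against -0.01 over all genes. Ifngr2 stood at 83.7, 93.4 and 83.0 CPM in DN isotype against 59.3, 40.0 and 35.2 CPM in DN blockade libraries (log2 ratio -0.95 ± 0.20, edgeR adjusted p = 0.0482), without overlap. The call was lost with the block (0.0764), with the 6 libraries alone (0.157) and without any library other than DN blockade 1 (0.0517 to 0.166; 0.0251 without DN blockade 1). Transcripts of other cell types were lower in the same libraries: Cd4 stood at 134 ± 12.1 CPM in DN isotype and 64.6 ± 16.8 CPM in DN blockade libraries, the plasmacytoid dendritic cell list gene Irf8 at 617 ± 120 and 427 ± 102 CPM and H2-Ab1 at 296 ± 48.2 and 203 ± 81.1 CPM (SD, n = 3 each). None of these 3 passed (edgeR adjusted p = 0.0695, 0.207 and 0.411). Their part in the difference was not tested. Ccr7, which lay below 0 in the Ifng-high cells of both libraries, fell by 1.60 ± 0.33 in the same comparison (edgeR adjusted p = 0.0415), from 858 ± 227 to 283 ± 133 CPM (SD, n = 3 each). Its p was 0.182 with the 6 libraries alone, 0.0385 and 0.0341 without DN isotype 3 or DN blockade 1, and 0.0709 to 0.104 without DN isotype 1, DN isotype 2, DN blockade 2 or DN blockade 3.

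**Figure D5:**
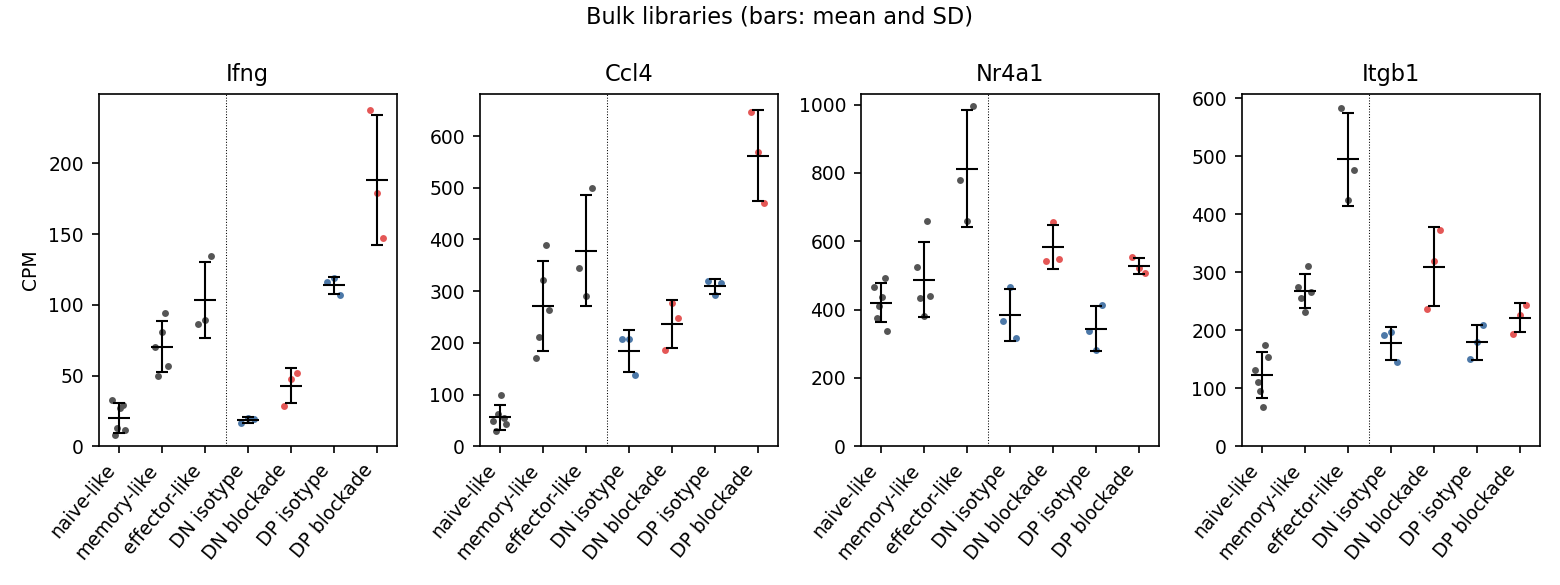
CPM of Ifng, Ccl4, Nr4a1 and Itgb1 in each bulk library (points) with the group mean and SD (bars), for the naive-like, memory-like and effector-like fractions left of the dotted line and the DN and DP groups right of it; the experiments were normalized separately. In the treatment experiment Ifng is highest in DP cells, while Nr4a1 and Itgb1 are highest in the effector-like fraction of the subset experiment. All naive-like libraries carry another date in their names than the memory-like and effector-like ones.

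Most of the cytokine-linked genes were higher in DP than DN cells, while Nr4a1 and Itgb1 did not pass. In isotype-treated mice, with the same DN isotype libraries as controls, 1909 genes (15%) were higher and 1885 (14.8%) lower in DP than DN cells, and 9 of the 12 genes were higher, none lower. Ifng stood at 116, 119 and 107 CPM in DP isotype libraries, above every DN library of either treatment, and was higher than in DN isotype libraries by 2.61 ± 0.22 (edgeR adjusted p = 4.54e-06). Ccl4 stood at 319.6, 292.5 and 315.6 CPM and was higher by 0.75 ± 0.18 (edgeR adjusted p = 0.0071), and Tnfrsf9 (3.82), Ccl3 (3.0), Bcl2a1d (2.08), Bhlhe40 (1.76), Serpinb6b (1.66), Bcl2a1b (1.49) and Gadd45b (0.77) also passed. Nr4a1 did not, at 338.1, 281.9 and 413.6 CPM (-0.15, edgeR adjusted p = 0.501), nor did Nfkbid (-0.25), Hspa1a (0.13) or Itgb1 (0.01, edgeR adjusted p = 0.970). Of the 49 measured genes lower in Ifng-high cells, 12 were lower in DP than DN cells and none higher; Ifngr2 was at 18.4 ± 5.40 CPM in DP and 86.7 ± 5.79 CPM in DN isotype libraries (SD, n = 3 each), and Ccr9, a gut-homing receptor that plasmacytoid dendritic cells also carry, at 4.07 ± 1.29 and 453 ± 110 CPM. Other transcripts that are not typical of CD8 T cells were lower in DP with them: Cd4 stood at 2.40 ± 1.20 CPM in DP and 134 ± 12.1 CPM in DN isotype libraries and Irf8 at 241 ± 17 and 617 ± 120 CPM (SD, n = 3 each). Their part in the difference was not tested. In DP blockade libraries Ifng stood at 238, 179 and 147 CPM, Ccl4 at 647, 570.0 and 470.0 CPM and Nr4a1 at 554.5, 523 and 507 CPM.

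Among PD-1- fractions, the CX3CR1+ effector-like cells differed from memory-like cells in Nr4a1 and Bhlhe40. Of 12388 genes, 60 (0.484%) were higher and 177 (1.43%) lower in effector-like than memory-like libraries, and 2 of the 12 genes were higher, none lower. Nr4a1 stood at 780.2, 660.3 and 996.6 CPM in effector-like against 525.3, 432.5, 380.7, 659.3 and 441.1 CPM in memory-like libraries, and was higher by 0.75 ± 0.18 (edgeR adjusted p = 0.0452). The lowest effector-like and highest memory-like libraries nearly met, and the adjusted p was 0.0862 with these 8 libraries alone, 0.0166 without memory-like 4 and 0.0511 to 0.236 without any other of the 8. Bhlhe40 was at 769 ± 245 against 376 ± 90.7 CPM (SD, n = 3 and 5) and higher by 1.04 ± 0.25 (edgeR adjusted p = 0.0424; 0.0297 and 0.0428 without memory-like 1 or effector-like 1, and 0.0849 to 0.245 without any other).

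Of the chemokine genes Ccl5 was higher in effector-like cells, at 4467 to 5329 CPM against 1123 to 1647 CPM in memory-like libraries (1.79 ± 0.17, edgeR adjusted p = 5.99e-05), and it passed without any single library. Ifng and Ccl4 did not pass, and whether their differences are smaller than that of Nr4a1 was not tested. Ifng stood at 103 ± 26.8 CPM in effector-like and 70.2 ± 18 CPM in memory-like libraries (0.57 ± 0.38, edgeR adjusted p = 0.658), and Ccl4 at 379 ± 108 and 271 ± 86.7 CPM (0.49 ± 0.32, edgeR adjusted p = 0.645). Itgb1 stood at 582.7, 424.8 and 477.2 CPM in effector-like libraries, above the 231.5 to 310.6 CPM of all 5 memory-like libraries, but did not pass (0.90 ± 0.23, edgeR adjusted p = 0.0628; 0.0127 with these 8 libraries alone). Tumour and stroma transcripts were also high in part of these libraries: Krt8 stood at 130.3, 226 and 2.12 CPM and Spp1 at 438, 617 and 2.12 CPM in effector-like 1, 2 and 3, against 17.6 ± 18.6 and 31.1 ± 34.1 CPM in memory-like libraries (SD, n = 5). Igfbp4 stood at 526 ± 530 against 44.8 ± 46.7 CPM (SD, n = 3 and 5), and the 49 measured genes lower in Ifng-high cells had a median log2 ratio of 1.18 here. Effector-like 3 had the lowest Krt8 and Spp1 and 477.2 CPM of Itgb1. The part of tumour and stroma transcripts in the Itgb1 difference was not tested. Gzma was higher in effector-like cells (2.80) and Xcl1 lower (-4.16). The 6 naive-like libraries held 8.22 to 32.9 CPM of Ifng, 29.8 to 98.7 CPM of Ccl4, 67.6 to 175 CPM of Itgb1 and 339 to 494 CPM of Nr4a1. Ifngr2 was highest in naive-like libraries, at 44.2 to 102 CPM, and overlapped between memory-like (4.63 to 21.3 CPM) and effector-like libraries (9.64 to 22.4 CPM). The library names give all naive-like libraries another date than the memory-like and effector-like ones. Fraction and date can therefore not be told apart in any comparison with naive-like libraries.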

How the data were processed

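The deposited single-cell table holds counts (UMIs) for 27933 genes in 5471 cells (2963 isotype, 2508 blockade); the deposited bulk tables hold expected counts, of which 40.6% (treatment) and 35.3% (subset) of positive values were not whole. Per the submitters' processing notes, Cell Ranger 1.3 and mm10 were used for the single cells and TopHat, RSEM, DESeq and mm9 for the bulk libraries, with no role or order given. Bulk libraries held 5027083 to 13579278 expected counts.

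Cells under 500 genes or over 10% mitochondrial UMIs (13 isotype, 6 blockade) were left out. UMIs were summed per library and class and given per 1000000 UMIs (CPM), with exact Poisson, binomial or conditional binomial 95% intervals, which cover counting error only. A gene was compared with at least 5 expected UMIs in the Ifng-high cells of each library and counted as higher or lower when at least 2-fold in the same direction in both; a class at 0 UMIs was set to a floor of 3 counts. No doublet caller was run. With 1 library per condition no test was made.

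Bulk expected counts were rounded and fitted per experiment in R 4.3.3 by the quasi-likelihood test of edgeR 4.0.16 with TMM scaling and the filterByExpr filter, all groups sharing 1 estimate of the spread, and 4 rows of repeated names in the subset table were left out. The labels do not say that replicates came from separate animals, so a p-value reflects the spread between libraries, which may be technical. By title number, the deviations of DN isotype and DN blockade libraries from their group means correlated at 0.151, 0.462 and 0.221. The best match of number 1 was number 3, however, and the numbers in the library descriptions differ between isotype and blockade. The labels therefore give no reason to pair these libraries, and the block by title number is an alternative only. Blocked values stand beside the calls they change. The scripts were tested on simulated data.

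The cells, gene lists and tests were chosen with earlier results of these data known. Genes were named by rule: Ifng, Ccl4, Nr4a1, Itgb1 and the sort genes, up to 15 higher and 10 lower genes with the largest ratio in the library where it was smaller, up to 5 genes per list and 6 in each direction between libraries; others are named as list members. Alternatives covered the Ifng threshold, depth, filters, other cell types, DESeq2 1.42.0, the block and single libraries. Some genes and markers are not reported here.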

Additional observations from a re-analysis of the deposited data

Results flagged for a closer look

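In the bulk naive-like libraries, single libraries lay far from the other 5 for 3 genes. The highest Hspa1a value was 287 CPM, with the next at 68.1 CPM. The highest Tnfrsf9 value was 122 CPM, with the next at 25.6 CPM, and the lowest Nfkbid value was 65.0 CPM, with the next at 132 CPM. These were 3 of 26 gene and group combinations examined, and chance gives about 1 in 20.

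For 5 of 13 genes examined, the level went one way between the isotype and blockade libraries in Ifng-high cells and the opposite way in the other CD3-positive cells, with both counting intervals on opposite sides of 0. The log2 ratios of blockade over isotype were -0.29 against 0.96 for Ifng, -0.81 against 0.98 for Ccl3, -0.74 against 1.42 for Ccl4, -0.80 against 0.22 for Nr4a1 and -1.78 against 0.90 for Hspa1a. Without cells of 20 or more Ifng UMIs, the ratios in the Ifng-high cells were 0.09, -0.28, 0.45, -0.36 and -1.48 in the same order. The difference was not tested, since each condition had 1 library.

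The cell with the most Ifng UMIs in the series was not among the Ifng-high cells, because no CD3 UMI was found in it. This blockade cell held 247 Ifng UMIs with 312 of Il2, 255 of Ccl4, 110 of Ccl3, 52 of Il3 and 8 of Nr4a1, at a depth of 4902 UMIs, with 1 UMI of Cd8b1 and 0 of Cd8a and Trac. In the Ifng-high cells Il3 had no UMI and Il2, the T cell growth factor, stood at 45.7 CPM (isotype) and 28.6 CPM (blockade). The other 3 CD3-negative blockade cells with Ifng held 4, 3 and 2 UMIs of it, and the isotype library had 1 such cell with 2.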

How the results depend on the processing

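Under the alternatives, 90 values of the main comparisons stayed within 1.5 times (counts) or the counting interval (shares) and 59 moved. Single genes gave 3555 values on the same side, 411 moved, 45 weaker, 30 stronger and 9 reversed. Ifng-high cells were 4.63 and 10.9% of isotype and blockade cells (403 in all) at a threshold of 3 Ifng UMIs, 0.960 and 3.80% (121) at 6, 0.206 and 1.43% (41) at 10, and 1.05 and 2.61% (92) after thinning. Beside 12 higher and 53 lower genes, 10 were lower at a threshold of 6, 1 higher and 2 lower at 10, 9 lower after thinning, 14 lower without cells of 3 or more myeloid, B or plasmacytoid dendritic cell UMIs, 46 higher and 112 lower with a filter of 1 expected UMI, and 6 and 7 with a filter of 20. In the first 4 of these settings, in that order, 8, 0, 4 and 2 of the lower genes were among the 53. Of the 6 alternatives chosen after seeing the data, leaving out cells of over 3 times the median UMIs gave 15 lower, leaving out cells of 3 or more tumour or stroma UMIs gave 7 higher and 14 lower, and the mean of per-cell CPM gave 18 lower. Blockade over isotype, 65 genes were lower at a threshold of 6, 84 higher and 39 lower at 10, 65 lower after thinning and 52 higher and 8 lower with the filter of 20. Reversed log2 ratios were H2-Ab1 0.60, Cd74 0.51 and H2-Aa 0.42 (blockade, threshold of 3), Igfbp4 0.032 (blockade, without cells of over 3 times the median UMIs), and, with the mean of per-cell CPM, Lgals7 0.74, Cald1 1.44, Nupr1 1.23 and Krt19 1.98 (isotype) and Krt19 0.44 (blockade). Their causes were not tested. Genes under a filter had no value: 27 of 121 named genes had one at a threshold of 10. In bulk, DN blockade against isotype gave 66 higher and 76 lower genes, 250 and 291 with DESeq2, 113 higher without the filter, 28 and 31 with the replicate block, and 0 and 2 when edgeR was fitted on those 6 libraries alone (1981 genes had an unadjusted p under 0.05 in the shared fit). Leaving out single libraries gave 12 to 90 higher and 10 to 139 lower (12 and 10 without DN isotype 1, 17 and 11 without DN isotype 2, 139 lower without DN isotype 3, 30 lower without DN blockade 1, 29 and 13 without DN blockade 3). DP against DN gave 1492 to 2007 higher and 1388 to 2034 lower, and with the replicate block by title 1801 and 1747. Title numbers correlated at 0.0195, -0.381 and -0.295. The numbers in the library descriptions, which DN and DP isotype libraries share, correlated at 0.0195, 0.379 and 0.325 (numbers 1, 3 and 2). The block by description number gave 1973 higher and 1882 lower. Effector-like against memory-like gave 144 higher and 340 lower with DESeq2, 117 lower fitted alone and 31 and 92 with the replicate block by title. In that block the edgeR adjusted p was 0.0619 for Nr4a1 and 0.0798 for Bhlhe40. Title numbers correlated at 0.00951, -0.0448 and -0.238, so they do not pair the libraries. Effector-like 1, 2 and 3 matched memory-like 2, 3 and 4 best, and each match shares a number in the library names. A block by those numbers was not tested. Without single libraries the comparison gave 23 to 46 higher and 82 to 169 lower. The higher count was under 60 by over 1.5 times without any but memory-like 5. Counts were lowest, at 23 and 82, without effector-like 2. Depth limits rare transcripts: a gene at 0 or 1 UMI in 78 or 177 cells may be expressed.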
